A study of Mus musculus with 21 samples.

Results

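Upper-layer cortical neuron genes are described here as 6 genes chosen by name, Cux1, Cux2, Rorb, Lhx2, Mdga1 and Inhba. All 6 were found in the table of the linc-Brn1b strain, which lists 40770 genes, and in the table of the Peril strain, which lists 42760. Neurons of the upper layers (layers II to IV) are born last in the cerebral cortex, mostly from intermediate progenitors of the subventricular zone, and connect cortical areas with each other or, in layer IV, receive input from the thalamus. The POU factors Brn1 (Pou3f3) and Brn2 (Pou3f2) are needed for the generation and migration of these neurons, and linc-Brn1b is a long intergenic noncoding RNA (lincRNA) transcribed next to Brn1. Cux1 and Cux2 are homeodomain transcription factors of layers II to IV and their progenitors, Rorb is an orphan nuclear receptor of layer IV, and Lhx2 is a LIM homeodomain factor of cortical progenitors. Mdga1 is a cell surface protein with immunoglobulin domains held by a lipid anchor, and Inhba encodes the subunit of the secreted factor activin A.

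RNA was sequenced from whole brain at P7 and from telencephalon at E13.5 or E15.5 of linc-Brn1b+/+ (wild type) and linc-Brn1b-/- (knockout) mice. Each of these groups had 2 libraries, except the knockout at E15.5, for which the labels list 3, and which of them entered the pooled value is not known. The series also holds E18.5 brain of the Peril strain (labelled linc-Sox2+/+ and linc-Sox2-/-) and E14.5 lung of the Fendrr strain (labelled linc-Foxf1a+/+ and linc-Foxf1a-/-), with 2 libraries per genotype. In every knockout, a lacZ reporter cassette carried by the mutant allele took the place of lincRNA sequence, and all strains came from hybrid 129S6/SvEv and C57BL/6N embryonic stem cells, with a backcross to C57BL/6J. Expression is given in FPKM, that is fragments scaled by transcript length and by the number of mapped fragments, as 1 value per group that pools its libraries. No value per library was used, so the spread between animals and the sequencing depth are unknown, no difference below has a test, an error or a replicate check, and every difference is a description of these pooled values. In whole tissue, fewer cells of a type and less RNA per cell cannot be told apart.

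The deletion was visible in the linc-Brn1b table, where linc-Brn1b was listed at 0 in the knockout at all ages and at 1.599, 2.498 and 0.799 FPKM in wild type at E13.5, E15.5 and P7. Pou3f3 was lower in knockout at each age, at 36.5 against 81.5 FPKM at E13.5, 29.2 against 82.5 FPKM at E15.5 and 5.81 against 22.7 FPKM at P7. In the Peril table the single entry that overlaps the targeted locus, linc-Atp11b-4, reaches beyond the deletion and stood at 4.65 FPKM in the libraries labelled knockout against 0.0109 FPKM in wild type. The paper reports the deletion of Peril in E18.5 knockout brain from RT-PCR. This entry alone shows no loss of the transcript and does not separate deleted from retained sequence, so it cannot settle the order of the columns. Directions for this strain therefore rest on the column order, which was taken from the linc-Brn1b table. If that order is swapped in the Peril table, every direction given for this strain turns. Genes of the Y chromosome differed between the genotypes in all 4 brain comparisons, with a summed level of 0.0133 FPKM in knockout against 49.2 FPKM in wild type at E13.5, and the opposite order at E15.5 (21.0 against 0.00662 FPKM), at P7 (23.2 against 0.0357 FPKM) and at E18.5 (26.4 against 0.0256 FPKM). Sex and genotype can therefore not be told apart within a comparison, nor sex and age between E13.5 and E15.5 within a genotype.

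Cux1 and Cux2 are both on chromosome 5 of mm9, on the minus strand, at chr5:136724005-137043301 and chr5:122308396-122500111. Each has 23 exons in the annotated transcript with the longest coding sequence, which spans 4494 bases in Cux1 and 4281 bases in Cux2. Rorb lies at chr19:19005095-19185686 (minus strand, 10 exons, 1413 coding bases) and Lhx2 at chr2:38194801-38225253 (plus strand, 5 exons, 1221 coding bases). Mdga1 lies at chr17:29964901-30107032 (minus strand, 17 exons, 2871 coding bases) and Inhba at chr13:16103684-16119044 (plus strand, 5 exons, 1275 coding bases). In the tables, Inhba shares a span of 260431 bases with 5 noncoding entries in the linc-Brn1b table and 2 in the Peril table, although the annotated gene has 15361 bases. Cux1, Cux2, Lhx2 and Mdga1 share their spans with 1 or 2 noncoding entries in the linc-Brn1b table, and Rorb with none. Whether the counting used strand is not given in the sources used here, so reads of overlapping and antisense entries may not be separated. Among these entries, linc-Inhba-AS stood at 0.451 FPKM in knockout against 0.187 FPKM in wild type at E15.5, the opposite order to Inhba, and linc-Lhx2-AS at 1.42 against 1.57 FPKM.

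Cux2, Rorb and Inhba had the lowest knockout values relative to wild type at E15.5, and the bases before their starts are printed to let them be compared. The sequences are the 100 bases before each RefSeq start in GRCm38.p6, a later build than the mm9 of the tables, with TATAAA and the inverted CCAAT box (ATTGG) in capitals. They lie at chr5:122049852-122049951 and chr5:122047826-122047925 for the pair of Cux2 starts (minus strand), at chr19:19111197-19111296 for the upstream start of Rorb (minus strand) and at chr13:16011751-16011850 for Inhba (plus strand).
Cux2, upstream start: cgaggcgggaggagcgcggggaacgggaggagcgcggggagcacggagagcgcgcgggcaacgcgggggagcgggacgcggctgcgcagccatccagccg
Cux2, downstream start: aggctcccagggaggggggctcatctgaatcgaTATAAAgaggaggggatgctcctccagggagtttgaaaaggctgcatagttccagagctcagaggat
Rorb, upstream start: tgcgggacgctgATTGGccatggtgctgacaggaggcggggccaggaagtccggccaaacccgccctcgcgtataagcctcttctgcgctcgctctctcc
Inhba: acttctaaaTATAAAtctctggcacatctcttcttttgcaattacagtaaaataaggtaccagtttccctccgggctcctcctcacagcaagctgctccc
The starts differ in base composition. Over the 300 bases from 250 before to 50 after the start, GC content was 80.3% at the upstream Cux2 start, above that of 99.1% of 32851 mouse promoters, 56.7% at the downstream Cux2 start, 63.7% at the upstream Rorb start and 47.7% at Inhba. TATAAA was found 67 bases before the downstream Cux2 start and 91 bases before the Inhba start, and in 13.6% of all promoters. CCAAT was found in the upstream Rorb promoter, 88 bases before the start, and in 37.4% of all promoters. The octamer ATGCAAAT bound by POU factors, the LIM homeodomain core TAATTA and the ROR half-site AGGTCA, searched on both strands, were not in any of the 9 promoters of the 6 genes, and were in 1.74%, 5.29% and 16.3% of all promoters. These matches are of letters only and show no binding.

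In wild type telencephalon at E13.5, Lhx2 had the highest level of the 6 genes at 147 FPKM, above 97.1% of genes with at least 1 FPKM, and Cux1 followed at 64.4 FPKM. Mdga1 (13.4 FPKM) and Cux2 (12.4 FPKM) were near the middle of expressed genes, while Rorb (1.52 FPKM) and Inhba (0.243 FPKM) were at the low end. The order of the top pair was reversed at P7, with 39.9 FPKM for Cux1 and 18.1 FPKM for Lhx2. FPKM is scaled by transcript length, so these levels can be set side by side between genes.

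**Figure D1:**
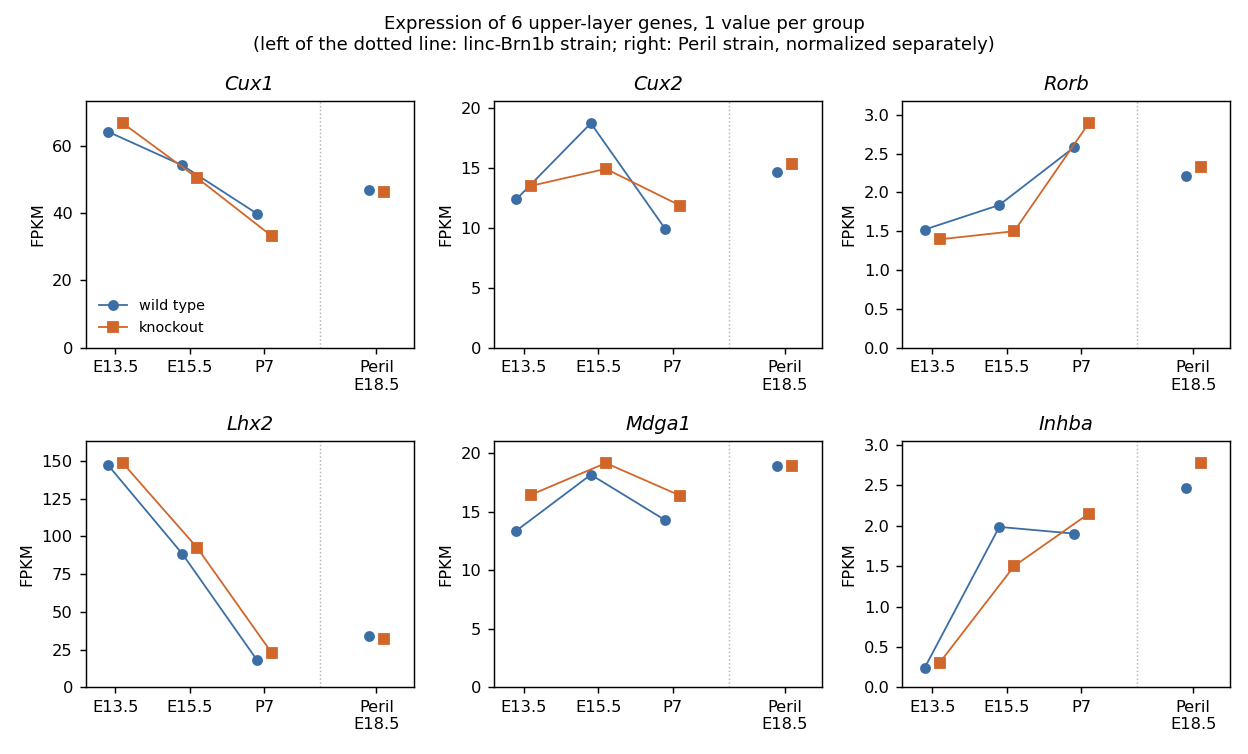
FPKM of the 6 genes on the vertical axis (from 0, a separate scale per gene) by age, with blue circles for wild type and orange squares for knockout, 1 pooled value per group and no error bars; lines join ages of the linc-Brn1b strain, and the Peril values at E18.5 were normalized separately. Cux2 is highest in wild type at E15.5 (18.7 FPKM), Lhx2 and Cux1 descend with age in both genotypes, and Inhba is under 1 FPKM at E13.5.

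The first question was whether these genes differ between linc-Brn1b knockout and wild type before, during and after upper-layer neurogenesis. Differences are knockout minus wild type on the log2(FPKM + 0.1) scale, which understates the change of low genes, and are read against all genes with a mean of at least 1 FPKM over both groups. At E15.5, when many upper-layer neurons are being born, 4 of the 6 genes were lower in knockout and 2 were higher, with a median of -0.19 against 0.01 for all genes, of which 46.5% were lower. At E13.5 and at P7 the balance was the other way, with 5 of 6 genes higher in knockout (Inhba among them at under 1 FPKM at E13.5) and medians of 0.09 and 0.18, against 0.06 and 0.01 for all genes, of which 58.9% and 52.2% were higher.

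**Figure D2:**
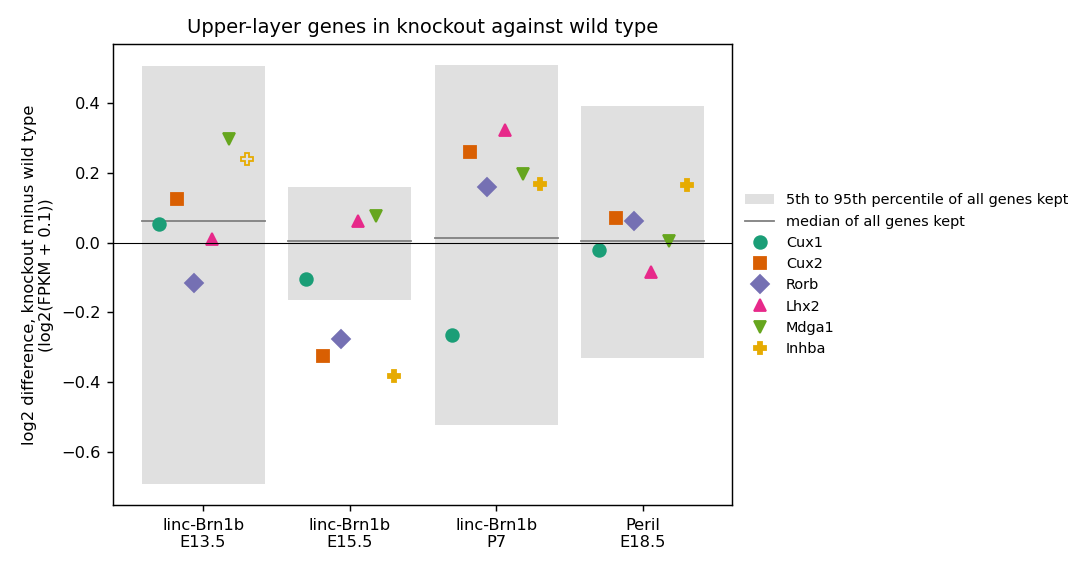
Log2 difference in FPKM + 0.1 between knockout and wild type for each gene in each comparison (symbols; open symbol, mean under 1 FPKM), with the 5th to 95th percentile of all genes kept as a grey band and their median as a grey line. At E15.5 the grey band runs from -0.17 to 0.16, and Cux2 (-0.33), Rorb (-0.28) and Inhba (-0.38) lie below it, while in the other comparisons every gene lies inside the band.

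At E15.5, Cux2 was at 14.9 FPKM in knockout and 18.7 FPKM in wild type telencephalon. The knockout value was 79.7% of wild type, a log2 difference of -0.33, and 1.30% of 13521 genes had a lower difference. At E13.5 Cux2 was instead higher in knockout (13.48 against 12.4 FPKM, log2 difference 0.13), and so it was at P7 (11.8 against 9.86 FPKM, 0.26).

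At E15.5, Inhba was at 1.502 FPKM in knockout and 1.99 FPKM in wild type, or 75.6% of wild type, with a log2 difference of -0.38, the lowest of the 6 genes. A lower difference was found in 0.984% of genes. At P7 the order was reversed, with 2.15 FPKM in knockout and 1.90 FPKM in wild type (log2 difference 0.17). At E13.5 Inhba stood at 0.305 FPKM in knockout and 0.243 FPKM in wild type, under the 1 FPKM minimum, and it was left out of the counts of genes past a limit at that age.

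At E15.5, Rorb was at 1.5003 FPKM in knockout and 1.84 FPKM in wild type, or 81.6%, with a log2 difference of -0.28. It was the only one of the 6 genes that was lower in knockout at E13.5 (1.40 against 1.52 FPKM, -0.12), and it was higher at P7 (2.89 against 2.58 FPKM, 0.16). Cux1 was close in both genotypes at E13.5 (66.9 in knockout and 64.4 FPKM in wild type) and at 93.0% of wild type at E15.5 (50.5 and 54.3 FPKM, -0.10). At P7 Cux1 was the only member lower in knockout, at 33.2 against 39.9 FPKM (-0.27), while its paralog Cux2 was higher. The ratio of Cux1 to Cux2 thus went from 5.21 in wild type and 4.96 in knockout at E13.5 to 2.90 and 3.39 at E15.5 and to 4.05 and 2.81 at P7.

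Lhx2 and Mdga1 were not lower in knockout at any age. Lhx2 was at 147 FPKM in wild type and 149 in knockout at E13.5, 88.4 and 92.4 at E15.5, and 18.1 and 22.6 at P7, where its log2 difference of 0.32 was the highest of the 6 genes. Mdga1 was at 13.4 and 16.5 FPKM at E13.5 (0.30), 18.2 and 19.2 at E15.5 (0.08), and 14.3 and 16.4 at P7 (0.20). Relative to the median of all genes, Cux1 and Lhx2 at E13.5 fell on the other side of 0 (-0.01 and -0.05).

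The width of the distribution over all genes differed between ages, which sets how far a difference of a given size stands out. At E15.5, 0.444% of 13521 genes were lower and 0.303% higher in knockout by at least 1.5-fold, and no member was among them. By at least 0.32 on the log2 scale, 2 of 6 members, Cux2 and Inhba, were lower, where 1.33% of all genes were lower, and none of the 6 was higher, where 1.08% of all genes were. For genes with a mean of 1 to 5 FPKM, the range of Inhba and Rorb, 3.496% were lower by this much and the 5th percentile was -0.28, and for genes with 5 to 20 FPKM, the range of Cux2, the values were 0.498% and -0.12. For genes with at least 20 FPKM, the range of Cux1 and Lhx2, they were 0.448% and -0.08. Inhba and Cux2 therefore lay below the 5th percentile of genes at their level, as did Cux1 at -0.10, and Rorb at -0.28 lay at the edge.

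At E13.5, 6.86% of 13507 genes were lower and 3.18% higher by 1.5-fold, and 14.3% and 14.7% by 0.32 (log2), with 0 of the 5 members kept in any of these counts. At P7, 3.96% of 14175 genes were lower and 3.43% higher by 1.5-fold, and none of the 6 members was. By 0.32 (log2), 11.3% of genes were lower, with no member, and 13.3% were higher, with 1 member, Lhx2, just past this limit. The members at E13.5 and P7 lay within the bulk of all genes.

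The E15.5 difference did not extend to all genes of the upper layers. Of 18 other upper-layer genes 15 were kept at E15.5, of which 7 were lower and 8 higher in knockout, with a median of 0.01. Pou3f3, next to the deletion, was lower by more than 0.32 (29.2 against 82.5 FPKM, log2 difference -1.50), while the calcium-binding protein gene Calb1 was higher (8.96 against 6.33 FPKM, 0.49). Pou3f2, the paralog of Pou3f3, was higher in knockout at E15.5 (29.9 against 27.4 FPKM, 0.13). Unc5d, a netrin receptor gene whose locus gives the subventricular zone marker Svet1, was at 9.43 and 9.80 FPKM (-0.06).

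Deep-layer genes had a median of 0.04 at E15.5 (3 of 13 lower), intermediate progenitor genes 0.04 (3 of 7 lower) and radial glia genes 0.02 (3 of 9 lower). Eomes (Tbr2), which marks intermediate progenitors, was at 50.9 FPKM in knockout and 49.5 FPKM in wild type. None of the genes kept in these 3 lists was lower by 0.32 (log2), and 1 of the deep-layer genes, Crym, was higher (20.4 against 13.98 FPKM).

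**Figure D3:**
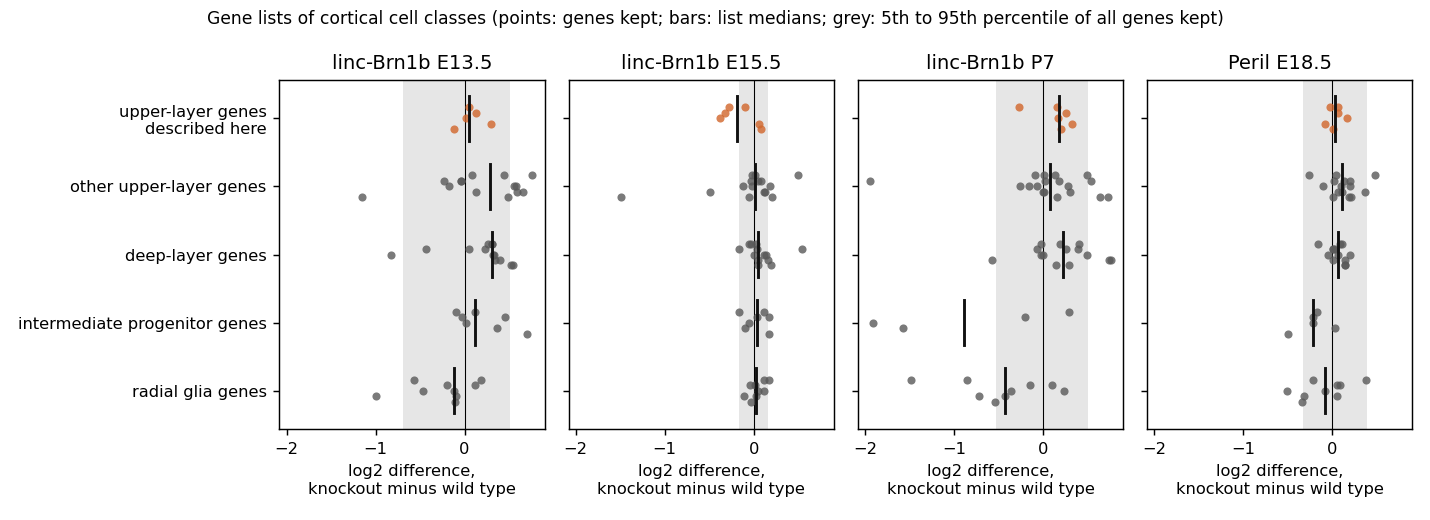
Log2 differences between knockout and wild type (horizontal axis) for genes kept in 5 lists of cortical cell classes (rows) in 4 comparisons (panels), with 1 point per gene, black bars for list medians and the 5th to 95th percentile of all genes kept in grey. At E15.5 the median of the 6 genes described here is -0.19 and those of the other 4 lists lie between 0.01 and 0.04; the point far to the left among other upper-layer genes in each linc-Brn1b panel is Pou3f3.

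Relatives and partners of the members were read for the same comparison. Among activin signalling genes 10 were kept at E15.5, with 7 lower and 3 higher and a median of -0.01, and Inhba was the single gene past 0.32 (log2). Its antagonist follistatin (Fst) was at 2.37 FPKM in knockout and 2.03 FPKM in wild type. Rora, the paralog of Rorb, was at 0.634 and 0.816 FPKM, under the minimum. Of 13 kept LIM homeobox genes and cofactors 6 were lower and 7 higher (median 0.02), and of 8 genes of the Mdga, neuroligin and neurexin families 2 were lower and 6 higher (median 0.02), with none past 0.32 in either list.

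Other tissue markers moved in the same libraries. In the knockout at E15.5, choroid plexus genes were lower, with a summed level of 5.57 against 244 FPKM over 5 genes. Ttr, which encodes transthyretin and is made in the choroid plexus, was at 1.39 against 231 FPKM, Folr1 at 0.290 against 3.82 FPKM and Clic6 at 0.305 against 3.28 FPKM. The dorsal pallium genes, which mark the cortex, summed to 636 FPKM in knockout and 622 FPKM in wild type, and the ventral telencephalon and striatum genes to 316 and 308 FPKM. The part of the choroid plexus difference in the values of Cux2, Inhba and Rorb was not tested.

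At P7 the knockout brain was lower in cerebellum and hindbrain genes, with 28.7 against 61.8 FPKM summed over 8 genes, and all 4 kept genes were lower by 1.5-fold. The Purkinje cell gene Pcp2 was at 1.48 against 14.7 FPKM, Barhl1 at 0.939 against 4.25 FPKM and En2 at 0.577 against 1.87 FPKM, and Hoxb2 was listed at 0 in knockout and at 0.627 FPKM in wild type. The dorsal pallium genes summed to 313 FPKM in knockout and 230 FPKM in wild type, with a median of 0.10 (log2), while the median of the 6 upper-layer genes was 0.18. The ventral telencephalon and striatum genes were higher in 10 of 10 cases (median 0.47, 258 against 192 FPKM summed), and radial glia genes were lower in 7 of 9 (median -0.42, 743 against 1214 FPKM). Of all genes kept at P7, 52.2% were higher and 47.8% lower in knockout, with a median of 0.01. Slc17a7, the vesicular glutamate transporter of cortical and cerebellar neurons, was at 187 against 102 FPKM. The part of these differences between the tissue samples in the P7 values of the members was not tested. At E13.5, erythroid genes summed to 41.6 FPKM in knockout and 112 FPKM in wild type, and microglia genes to 12.9 and 19.4 FPKM. Endothelial genes, with 5 of 5 lower where 41.1% of all genes were, summed to 37.5 and 55.3 FPKM. The part of these lists in the E13.5 values of the members was not tested.

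**Figure D4:**
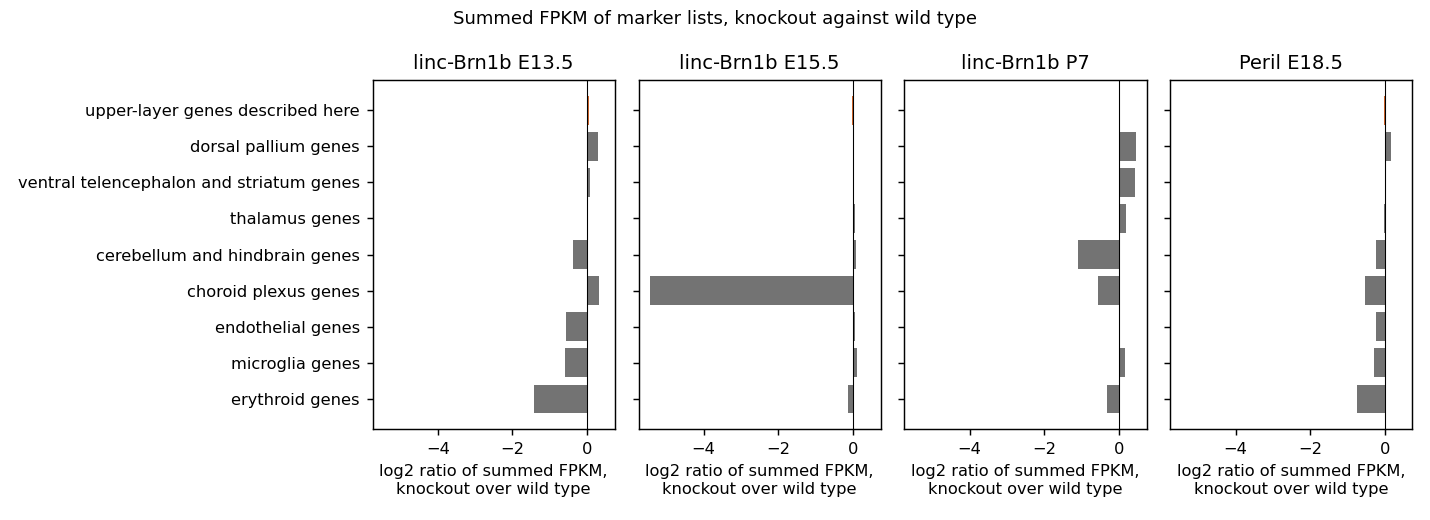
Log2 ratio of summed FPKM between knockout and wild type (bars from 0) for the 6 upper-layer genes (orange) and 8 marker lists (grey) in 4 comparisons. The longest bar is that of choroid plexus genes at E15.5 (5.57 against 244 FPKM), and cerebellum and hindbrain genes are low at P7 (28.7 against 61.8 FPKM). The sums of the 6 genes are close (180 against 183 FPKM at E15.5 and 89.1 against 86.6 FPKM at P7). Lhx2 and Cux1 make up most of these sums and differ in opposite directions. In knockout at P7, Lhx2 is higher (22.6 against 18.1 FPKM) and Cux1 lower (33.2 against 39.9 FPKM), and at E15.5 the directions are the same.

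With age, the 6 genes parted. From E13.5 to E15.5 in wild type telencephalon, 4 genes were higher and 2 lower. Inhba went from 0.243 to 1.99 FPKM (log2 difference 2.60), above the difference of 99.8% of genes, and passed the 1 FPKM minimum only through its E15.5 value. With a pseudocount of 1 FPKM this difference was 1.26. Cux2 went from 12.4 to 18.7 FPKM (0.59), Mdga1 from 13.4 to 18.2 FPKM (0.44) and Rorb from 1.52 to 1.84 FPKM (0.26). Lhx2 was lower at E15.5 (147 to 88.4 FPKM, -0.74), as was Cux1 (64.4 to 54.3 FPKM, -0.25). By 1.5-fold, 2 of the 6 members (Cux2 and Inhba) were higher and 1 (Lhx2) lower, where 11.8% of 13539 genes were higher and 10.3% lower.

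In knockout over the same days, Cux2 went from 13.48 to 14.9 FPKM (0.14), Mdga1 from 16.5 to 19.2 FPKM (0.22) and Rorb from 1.40 to 1.5003 FPKM (0.10). Inhba went from 0.305 to 1.502 FPKM (1.98), with a mean under the minimum. Lhx2 (149 to 92.4 FPKM, -0.69) and Cux1 (66.9 to 50.5 FPKM, -0.40) were again lower. By 1.5-fold 1 of 5 kept members was lower and none higher, where 10.4% of 13569 genes were lower and 12.8% higher. The difference with age was smaller in knockout than in wild type by 0.45 for Cux2 and by 0.62 for Inhba (log2), or by 0.43 and 0.33 with a pseudocount of 1. Over the same days, choroid plexus genes went from 213 to 5.57 FPKM (summed) in knockout and from 169 to 244 FPKM in wild type, and Y-linked genes from 0.0133 to 21.0 FPKM in knockout and from 49.2 to 0.00662 FPKM in wild type. The part of the choroid plexus genes in the values with age was not tested. These values come from the same 4 groups as the genotype differences at E13.5 and E15.5 and are no independent evidence.

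From E15.5 telencephalon to P7 whole brain, tissue and age cannot be told apart. Lhx2 was lower at P7 in both genotypes, at 20.5% of its E15.5 level in wild type and 24.5% in knockout. Cux2 was at 52.8% and 79.4%, Cux1 at 73.5% and 65.7%, and Mdga1 at 78.6% and 85.4%. Rorb was higher at P7, at 140% in wild type and 193% in knockout, and Inhba was at 95.8% and 143%. Relative to the median of the dorsal pallium genes, 5 of the 6 genes in wild type and all 6 in knockout were instead higher at P7. In wild type 2 of 6 members were lower by 1.5-fold and none higher, where 30.3% of 14152 genes were lower and 25.9% higher. In knockout 2 were lower and 1 higher, where 30.5% of 14109 genes were lower and 26.8% higher. Over the 6 groups of the strain, the span from the lowest to the highest value was 8.17-fold for Lhx2, 6.55-fold for Inhba, 2.01-fold for Cux1, 2.00-fold for Rorb, 1.89-fold for Cux2 and 1.43-fold for Mdga1, all on the FPKM + 0.1 scale.

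For comparison with another lincRNA deletion, the members were read in E18.5 brain of the Peril strain. The values were close in both groups, with 2 genes lower and 4 higher in the libraries labelled knockout and a median of 0.03, against 0.00 for all genes, of which 50.8% were higher. With the column order swapped, the counts would be 4 lower and 2 higher. In the libraries labelled knockout Cux1 was at 46.2 FPKM against 47.0 FPKM in wild type, Cux2 at 15.3 against 14.6, Rorb at 2.32 against 2.22, Lhx2 at 32.0 against 33.9, Mdga1 at 18.9 in both, and Inhba at 2.78 against 2.46 FPKM. The largest difference was that of Inhba (0.16). By 1.5-fold, 1.4% of 14405 genes were lower and 1.95% higher, and by 0.32 (log2) 5.24% and 7.02%, with no member among them. linc-Inhba-AS, which shares the span of Inhba, was at 4.37 FPKM in the libraries labelled knockout and 2.97 FPKM in wild type. Among 15 kept genes of the other upper-layer list 2 were lower and 13 higher, with a median of 0.11, or 13 lower and 2 higher with the order swapped. Choroid plexus genes summed to 574 FPKM in the libraries labelled knockout and 835 FPKM in wild type, and their part in these values was not tested. The strains differ in age, tissue and normalization, so the difference between their deletions was not tested.

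In E14.5 lung of the Fendrr strain, where no cortical neurons are present, Lhx2 was near 0, at 0.140 FPKM in knockout and 0.138 FPKM in wild type. Cux2 was at 2.09 and 2.16 FPKM, Mdga1 at 2.98 and 2.90, Rorb at 0.318 and 0.423, and Inhba at 1.38 and 0.916 FPKM. Cux1 was at 38.0 and 36.4 FPKM and so was not restricted to brain. Levels in whole tissue are therefore not those of upper-layer neurons alone.

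Genes with profiles most like each member over the 6 groups of the linc-Brn1b strain were found by the Euclidean distance between centred log2(FPKM + 0.1) values among 12618 genes. The nearest to Cux2 were Hdac5 (distance 0.18), Rage (0.19) and Fam84a (0.21). At E15.5 Hdac5 was at 43.8 FPKM in knockout and 46.5 FPKM in wild type, Rage at 1.38 and 1.55, and Fam84a at 21.4 and 30.4. These values entered the distance, so a direction shared with Cux2 follows from how the genes were chosen. Nearest to Inhba were Clstn2 (0.60), Ccbe1 (0.60) and Nxph3 (0.66), at larger distances than for any other member. Nearest to Lhx2 were Acvr2b (0.20), an activin receptor gene, Zfp961 (0.25) and Phactr4 (0.29). For Cux1 the nearest were Cald1 (0.08), Hadha (0.10) and Vps4b (0.11), for Rorb Isoc2b (0.15), Mapk4 (0.17) and Txnrd2 (0.18), and for Mdga1 Clip2 (0.12), Adar (0.12) and Nprl2 (0.13). The points share libraries, depth and normalization within each group.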

How the data were processed

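RNA-Seq of 21 libraries in 10 groups was used, with groups taken from the sample labels. Per the paper's methods, the authors aligned paired-end reads of 101 bp to mm9 with TopHat2 and ran Cuffdiff2 (Cufflinks 2.0.2 in the submitters' processing notes). The values the authors deposited are FPKM, scaled within each of 3 tables and given as 1 value per group (0 columns of values per library). The tables also hold the authors' log2 fold changes, test statistics, p-values and q-values, which were not used. In the linc-Brn1b table, the first value of a comparison is that of the group named second, and the same order was assumed for the other tables. For the E15.5 knockout the labels list 3 libraries, but 2 are given in the paper. Genes with a mean of at least 1 FPKM over the groups compared were kept, and differences were calculated as log2(FPKM + 0.1) with pandas 2.3.3. The calculation was tested on simulated data. Since each group has 1 value, no test was made, and shares of all genes past 1.5-fold or 0.32 (log2) are given as background. Gene models are those of GENCODE for mm9, and promoters are from RefSeq (GRCm38.p6); all 6 genes were matched by symbol. Protein sequences were not used here. Named genes are the 6 genes, those of 19 lists written by hand (1 of which is not reported here), the genes at the deletions, the entries sharing a span with a member, and the 3 nearest profiles of each member. The members and lists were chosen with earlier results of these data known. Alternatives were other pseudocounts, folds and FPKM minimums, centring on all genes, and values relative to the dorsal pallium genes.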

Additional observations from a re-analysis of the deposited data

How the results depend on the processing

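Neither depth nor spread between animals is known, so none of the differences has a measured error. No paired analysis was possible because the tables hold 1 value per group, and leaving out a library was not possible for the same reason. The count of members lower in knockout by 1.5-fold was 0 in all 4 brain comparisons under each alternative, except that with a limit of 0.32 (log2) 2 of 6 were lower at E15.5. The 24 genotype differences kept their direction with pseudocounts of 1 and 0.01. With a pseudocount of 1, the E13.5 to E15.5 difference in wild type went from 2.60 to 1.26 for Inhba and from 0.59 to 0.56 for Cux2, which is then under 1.5-fold. Centring on all genes turned the sign of 2 of them, Cux1 and Lhx2 at E13.5, and setting them against the dorsal pallium genes that of 7, at E13.5 and E18.5 but not at E15.5 or P7. Against the dorsal pallium genes 8 of the 12 E15.5 to P7 differences turned from lower to higher, by the construction of this reference, in wild type those of Cux1, Cux2, Mdga1 and Inhba and in knockout those of Cux1, Cux2, Lhx2 and Mdga1. The 3 of them past 1.5-fold turned from -0.92 to 1.26 for Cux2 in wild type, from -0.60 to 1.47 for Cux1 in knockout and from -2.02 to 0.052 for Lhx2 in knockout.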

Other observations

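At E13.5 most of the deep-layer genes stood higher in knockout. Of 13 kept genes 11 were higher and 2 lower, with a median log2 difference of 0.31 against 0.06 for all genes. Fezf2, a factor of subcerebral projection neurons, was at 0.54, Sox5 at 0.52 and Tbr1 at 0.26, while Ctgf (-0.83) and Crym (-0.43) were lower. All 8 genes of the Mdga, neuroligin and neurexin families were higher at this age, with a median of 0.31 and the highest value for Nlgn1 (0.47). Of the other upper-layer genes 9 of 14 were higher (median 0.29), where 58.9% of all genes were, among them Unc5d (0.65). Radial glia genes had 7 of 9 lower (median -0.12), and dorsal pallium genes 4 of 6 higher (median 0.20). At E15.5, 10 of 13 kept deep-layer genes were higher too (median 0.04), where 53.5% of all genes were higher and the spread over all genes was narrower. The 5th to 95th percentile of all genes ran from -0.69 to 0.51 at E13.5 and from -0.17 to 0.16 at E15.5. None of these differences was tested.

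At P7 intermediate progenitor genes were low in knockout, with 3 of 4 kept genes lower and a median of -0.89. Of all genes kept at this age 47.8% were lower, with a median of 0.01. Neurod1 (-1.57) and Insm1 (-1.91), which neuronal precursors outside the cortex use too, were past 1.5-fold, in the same libraries as the low cerebellum and hindbrain genes, and their part was not tested. Eomes was at 3.24 FPKM in knockout against 3.74 FPKM in wild type.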
